A study of Arabidopsis thaliana with 10 samples.

Results

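STOMAGEN (AT4G12970, also called EPFL9) was followed over the 10 arrays and 5 groups of a study of CIN-TCP transcription factors in Arabidopsis thaliana. It was taken as the probe set annotated to that gene, 1 of 22810 probe sets on the array and 1 of 13513 that list a single gene. STOMAGEN encodes a small secreted peptide that promotes the formation of stomata, the pores through which leaves exchange gases. The peptide is made mainly in the inner, photosynthetic tissue of young leaves and acts on the epidermis, where it competes with the inhibitory peptides EPF1 and EPF2 for receptors of the ERECTA family and TMM. Stomatal precursors then pass through steps governed in turn by the transcription factors SPCH, MUTE and FAMA. CIN-TCP genes encode transcription factors that restrain growth and promote maturation in developing leaves, and a natural microRNA, miR319, limits the transcripts of some of them.

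Total RNA came from vegetative shoot apices of soil-grown plants kept at 20 °C with 10 h of light, and each group had 2 arrays. The octa plants, of the Col accession and sampled at 18 DAS (the age code of the labels), were taken to be the combination of both microRNAs that the design describes, which targets all 8 CIN-TCP genes. The miR319b plants, also Col and sampled at 17 DAS, overexpressed miR319b from the 35S promoter, which is active in most tissues, and the targets of this natural microRNA are TCP2, TCP3, TCP4, TCP10 and TCP24. The miR-3TCP plants, Col at 14 DAS, carried the same promoter before a microRNA designed to target the other 3 genes, TCP5, TCP13 and TCP17. The BLS>>TCP4 plants, at 14 DAS, belonged to the Ler accession and carried TCP4 under BLS, a promoter active in leaves. The unaltered plants were Col at 14 DAS. No group of unaltered Ler plants and none of older Col plants was analysed here, so for octa and miR319b genotype and age cannot be told apart, and for BLS>>TCP4 transgene and accession cannot be told apart.

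Values are MAS5 signals on a linear scale, a measure of hybridisation to each probe set, with a median of 50 on every array. The BLS>>TCP4 arrays stood apart, with mean signals of 191 and 198 against 141 to 156 on the other arrays, and their replicates differed more (standard deviation of the log2 difference 0.44 against 0.24 to 0.30). The annotation gave no CIN-TCP gene (0 of 8) a probe set of its own, so the labels could not be checked against the targeted genes. Results that rest on the spread of all groups are therefore given with and without the BLS>>TCP4 arrays.

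STOMAGEN signal was lowest in octa, intermediate in miR319b, alike in miR-3TCP and Col, and highest in BLS>>TCP4. The octa arrays had signals of 81.7 and 95.5, and the miR319b arrays had 127 and 118. The miR-3TCP arrays had 192 and 199, the BLS>>TCP4 arrays had 684 and 390.5, and the Col arrays had 198 and 211. Both octa arrays lay below both miR319b arrays, these lay below every miR-3TCP and Col array, and both BLS>>TCP4 arrays lay above all others, while the miR-3TCP and Col ranges overlapped. Within its own array, STOMAGEN ranked above 60.01% and 63.6% of probe sets in octa, 70.02% and 68.4% in miR319b, 79.3% and 80.0% in miR-3TCP, 94.4% and 88.8% in BLS>>TCP4, and 79.6% and 80.8% in Col. These ranks, which do not depend on the scaling of an array, put the groups in the same order.

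**Figure D1:**
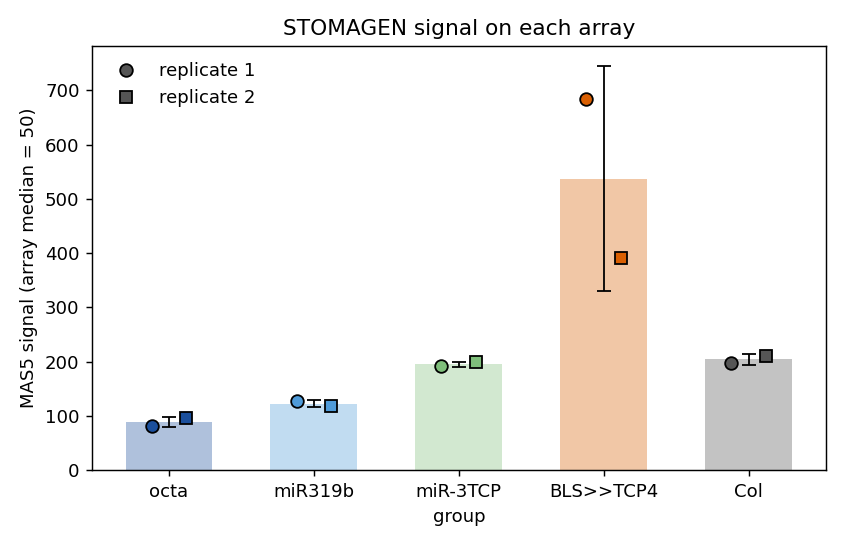
MAS5 signal of STOMAGEN (vertical axis, array median 50) on each of the 10 arrays, by group; points are arrays (circle for replicate 1, square for replicate 2), bars are group means and whiskers are 1 SD over 2 arrays. The octa and miR319b arrays lie between 81.7 and 127, the miR-3TCP and Col arrays between 192 and 211, and the BLS>>TCP4 arrays at 684 and 390.5.

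Mean signals were 88.6 ± 9.73 in octa, 122 ± 6.71 in miR319b, 195 ± 4.82 in miR-3TCP, 537 ± 208 in BLS>>TCP4 and 204 ± 9.60 in Col (SD, n = 2 each). They were 43.3%, 59.9%, 95.6% and 263% of the Col mean in octa, miR319b, miR-3TCP and BLS>>TCP4. The replicates of 4 groups lay closer together than those of BLS>>TCP4. Their gaps on the log2(signal + 16) scale were 0.19 in octa, 0.10 in miR319b, 0.05 in miR-3TCP and 0.09 in Col. The gap in octa was larger than that of 58.7% of the probe sets tested there. In miR319b, miR-3TCP and Col these shares were 31.3%, 20.0% and 31.7%. The gap in BLS>>TCP4 was 0.78, larger than that of 93.0% of the probe sets tested in the same group. The level in BLS>>TCP4 is therefore known less precisely than the others. In whole apices, fewer cells that make STOMAGEN and less STOMAGEN RNA per cell cannot be told apart.

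Differences were tested with limma, a linear model fitted to log2(signal + 16) of 13648 probe sets, and a probe set was called when its p-value, adjusted by the Benjamini-Hochberg method over all probe sets of that contrast, was under 0.05. In octa, where all 8 CIN-TCP genes are targeted, STOMAGEN fell relative to Col, with a log2 change of -1.08 ± 0.22 (SE, 95% confidence interval -1.57 to -0.59, limma adjusted p = 0.0440), and 1.55% of probe sets were called lower in that contrast. Its fall was the 64th largest of those tested. Fitted without the BLS>>TCP4 arrays, the same change had a standard error of 0.12 and an adjusted p of 0.0102, with 3.38% of probe sets called lower. STOMAGEN then ranked 14th of 13648 by p-value. With all 10 arrays, the call lay close to the threshold and was lost in 14 of 21 alternative fits, with adjusted p-values up to 0.298, among them each fit that left out an octa or a Col array. The log2 change kept its sign in each of them and ranged from -1.20 to -0.82.

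In miR319b, STOMAGEN averaged 122 against 204 in Col, a log2 change of -0.67 ± 0.22 (95% confidence interval -1.16 to -0.18) that was not called with all arrays fitted (limma adjusted p = 0.113, with 2.78% of probe sets called lower). It was called without the BLS>>TCP4 arrays (adjusted p = 0.0172, with 6.13% called lower) and when only the miR319b and Col arrays were fitted (adjusted p = 0.0467). In miR-3TCP, where only TCP5, TCP13 and TCP17 are targeted, the log2 change against Col was -0.06 ± 0.22 and was not called (adjusted p = 1.000, with 0.00733% of probe sets called in either direction). Its 95% confidence interval ran from -0.55 to 0.43, or from -0.33 to 0.22 without the BLS>>TCP4 arrays.

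The groups of the Col accession were then compared with each other. STOMAGEN was lower in octa than in miR-3TCP by a log2 difference of -1.02 ± 0.22 (limma adjusted p = 0.0430, with 2.14% of probe sets called lower), a difference that does not use the Col mean. Without the BLS>>TCP4 arrays the adjusted p was 0.0112, with 3.59% called lower. With all arrays, this call too was lost in 12 of 21 alternative fits, including each that left out an octa or a miR-3TCP array (adjusted p up to 0.345). Between miR319b and miR-3TCP the difference was -0.61 ± 0.22, not called with all arrays (adjusted p = 0.158, with 2.67% called lower) but called without the BLS>>TCP4 arrays (adjusted p = 0.0233, with 5.35% called lower). Between octa and miR319b, neighbours in the order of levels, the difference was -0.41 ± 0.22 (adjusted p = 0.563) with 0% of probe sets called by limma in either direction (1347 had an unadjusted p under 0.05, and 2 were called after quantile normalization). Without the BLS>>TCP4 arrays the 95% confidence interval of this difference, -0.68 to -0.13, lay below 0, but the adjusted p was 0.215, with 0.0293% of probe sets called. STOMAGEN was thus lower on both octa arrays than on both miR319b arrays, and the difference did not pass the test over all probe sets.

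The 4 arrays whose plants overexpressed miR319b, alone or in octa, were also set against the 4 Col accession arrays without it. STOMAGEN signals were 81.7 to 127 with miR319b and 192 to 211 without it, so the ranges did not overlap, and the means were 106 ± 20.7 and 200 ± 8.06 (SD, n = 4 arrays each). The limma contrast gave -0.84 ± 0.16 (adjusted p = 0.00884, with 7.28% of probe sets called lower), and without the BLS>>TCP4 arrays the adjusted p was 0.00117, with 10.3% called lower. A two-sided exact permutation test over these 8 arrays gave p = 0.0286, the smallest that 4 against 4 allows. That value follows from the ranges not overlapping and adds nothing to it. The test treats the arrays as exchangeable, although each side pools replicates of different groups. Ages differed with miR319b in this comparison (17 and 18 DAS against 14 DAS). Groups with and without miR-3TCP differed by -0.41 in the presence of miR319b (octa minus miR319b, 18 against 17 DAS). In its absence they differed by -0.06 (miR-3TCP minus Col, both 14 DAS). The limma test of the first value against the second gave -0.35 ± 0.31 (95% confidence interval -1.04 to 0.35, adjusted p = 0.832, with 0.00733% of probe sets called in either direction). Without the BLS>>TCP4 arrays the interval was -0.74 to 0.04 (adjusted p = 0.493).

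**Figure D2:**
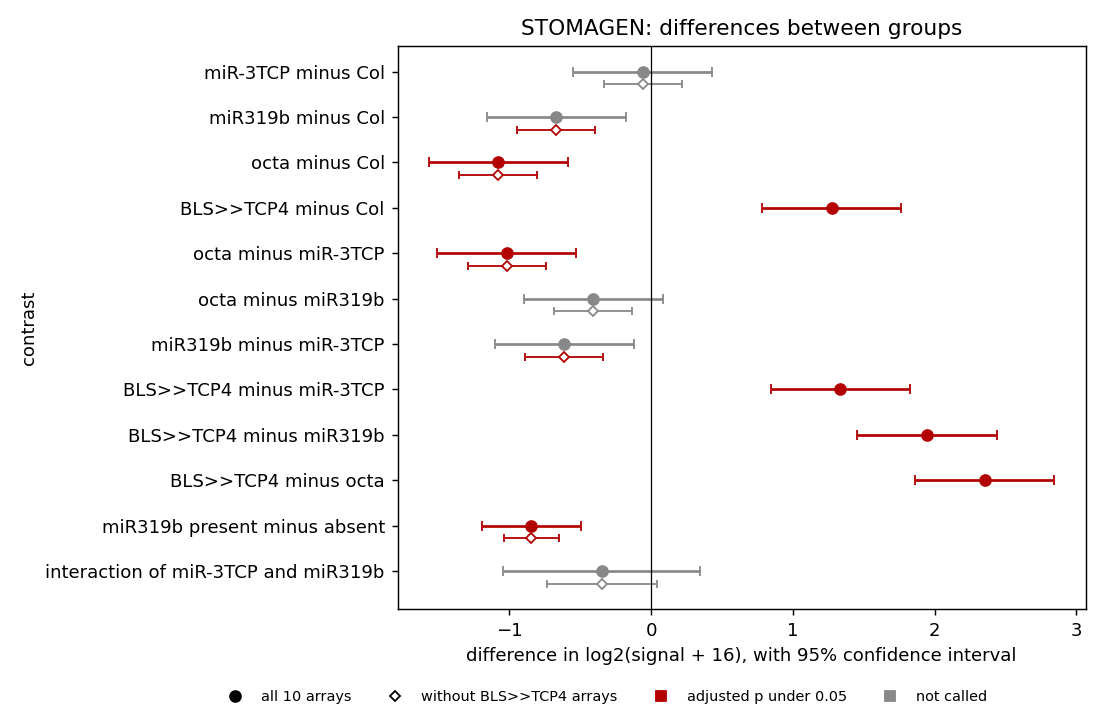
Difference in STOMAGEN log2(signal + 16) for each of 12 contrasts (horizontal axis, with the 95% confidence interval), from limma on all 10 arrays (filled circles) and without the BLS>>TCP4 arrays (open diamonds); red marks an adjusted p under 0.05 and grey a contrast not called. The estimate for octa minus Col is -1.08 in both fits, and its interval narrows from -1.57 to -0.59 with all arrays to -1.35 to -0.80 without BLS>>TCP4.

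STOMAGEN was higher in BLS>>TCP4 than in Col, groups that differ in both transgene and accession. In BLS>>TCP4 the signal of 537 against 204 in Col gave a log2 change of 1.28 ± 0.22 (95% confidence interval 0.79 to 1.77, limma adjusted p = 0.00284). That contrast had 17.4% of probe sets called higher, and the rise of STOMAGEN was the 172nd largest. The standard error pools the spread of all groups. With only the BLS>>TCP4 and Col arrays fitted it was 0.27, with a 95% confidence interval of 0.63 to 1.92 and a limma adjusted p of 0.0281. In that fit 1769 of 13648 probe sets were called in either direction. The change was 0.88 with only the lower of the BLS>>TCP4 arrays and 1.67 with only the higher. A single array gives no estimate of the spread in its group, so no test is read from these fits. Of the probe sets called between BLS>>TCP4 and Col, 66.6% were higher, against 48.0% of those called after quantile normalization, where the change of STOMAGEN was 1.07 (adjusted p = 0.00892). Quantile normalization also moved the median difference of all probe sets, to 0.01 against Col, 0.0038 against miR-3TCP, -0.02 against miR319b and -0.01 against octa, where it had been 0.10, 0.10, 0.09 and 0.14 on the deposited scale. Measured from that median, the STOMAGEN difference between BLS>>TCP4 and Col was 1.05 after quantile normalization and 1.17 on the deposited scale, and that between BLS>>TCP4 and octa was 2.12 and 2.22.

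STOMAGEN was also higher in BLS>>TCP4 than in every altered group of the Col accession. The log2 difference was 2.35 ± 0.22 against octa (limma adjusted p = 5.02e-05, with 24.2% of probe sets called higher), 1.95 ± 0.22 against miR319b (adjusted p = 1.55e-04, 21.3%) and 1.34 ± 0.22 against miR-3TCP (adjusted p = 0.00232, 16.2%). The first is a 5.11-fold difference in signal + 16. It was the 43rd largest positive difference between BLS>>TCP4 and octa. With only the compared arrays fitted, the limma adjusted p-values were 0.00255 against octa, 0.00363 against miR319b and 0.0297 against miR-3TCP. The share of calls that were higher fell after quantile normalization in these contrasts too, to 50.6% against octa, 50.9% against miR319b and 48.1% against miR-3TCP, from 71.0%, 66.1% and 68.1% on the deposited scale, and STOMAGEN stayed called in all 3. For the calls against Col and miR-3TCP in octa the corresponding shares were 30.6% and 24.4% after quantile normalization and 15.3% and 12.8% on the deposited scale. For miR319b present against absent they were 35.9% and 24.5%.

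Of 35 genes of stomatal signalling and the stomatal lineage, 6 had a named probe set, and 4 of them, STOMAGEN included, passed the filter on dim probe sets. The other 3 were SPCH, which starts the lineage, FAMA, which acts in the last division and in guard cell fate, and AT5G10310. Of these 3, 0 were called between any altered group and Col by limma, in contrasts where 1.55% of all probe sets were called lower in octa, 2.78% lower in miR319b, 0.00733% either way in miR-3TCP, and 17.4% higher and 8.71% lower in BLS>>TCP4. With 3 genes, a count of 0 is near those shares. Their median log2 changes were -0.32 in octa, -0.18 in miR319b, -0.02 in miR-3TCP and 0.06 in BLS>>TCP4, where the medians of all probe sets tested were -0.05, -0.01, 0.0027 and 0.10. At an unadjusted p under 0.05, FAMA in octa and SPCH in BLS>>TCP4 passed, as did 2018 and 5284 of all 13648 probe sets in those contrasts with Col. EPF1, EPF2, TMM and the ERECTA family had no probe set with a single listed gene and are not analysed here.

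FAMA signals were 33.0 and 32.5 in octa, 43.6 and 39.0 in miR319b, 39.7 and 44.5 in miR-3TCP, 48.0 and 55.3 in BLS>>TCP4, and 48.5 and 49.4 in Col. Both octa arrays lay below all others. The change in octa against Col was -0.41 ± 0.14 (limma adjusted p = 0.178), and the only call was between BLS>>TCP4 and octa (0.47 ± 0.14, adjusted p = 0.0230). SPCH signals were 163 and 104 in octa, 161 and 125 in miR319b, 151 and 177 in miR-3TCP, 131 and 62.0 in BLS>>TCP4, and 162 and 171 in Col. The mean of SPCH was lowest in BLS>>TCP4, where STOMAGEN was highest, but its replicates there were far apart, and the change in BLS>>TCP4 against Col was -0.77 ± 0.28 (adjusted p = 0.0729). Without BLS>>TCP4 replicate 1 this change was -1.23, and without replicate 2 it was -0.31. AT5G10310 lay between 24.6 and 40.8 on all arrays, with changes against Col of -0.0017 in octa, 0.19 in miR319b, 0.16 in miR-3TCP and 0.12 in BLS>>TCP4 (adjusted p = 0.587 to 1.000).

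MUTE, which drives the step between SPCH and FAMA, and ATSBT5.2, a secreted protease gene, were too dim to pass the filter. MUTE signals were 1.08 and 4.09 in octa, 7.52 and 6.81 in miR319b, 0.854 and 9.69 in miR-3TCP, 37.2 and 34.1 in BLS>>TCP4, and 2.39 and 7.59 in Col. It was above 10 only on the BLS>>TCP4 arrays. In the fit with no filter, MUTE rose in BLS>>TCP4 relative to Col (log2 change 1.31 ± 0.20, limma adjusted p = 0.00445, with 11.3% of probe sets called higher). Both MUTE and STOMAGEN were thus highest in BLS>>TCP4, and MUTE was not called in octa or miR319b (log2 changes -0.17 and 0.15, adjusted p = 0.867 and 0.782). ATSBT5.2 averaged 34.7 ± 15.3 in octa, 29.3 ± 3.45 in miR319b, 14.7 ± 2.21 in miR-3TCP, 25.6 ± 3.37 in BLS>>TCP4 and 19.6 ± 0.280 in Col (SD, n = 2 each) and was not called against Col in any group (adjusted p = 0.436 to 1.000).

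**Figure D3:**
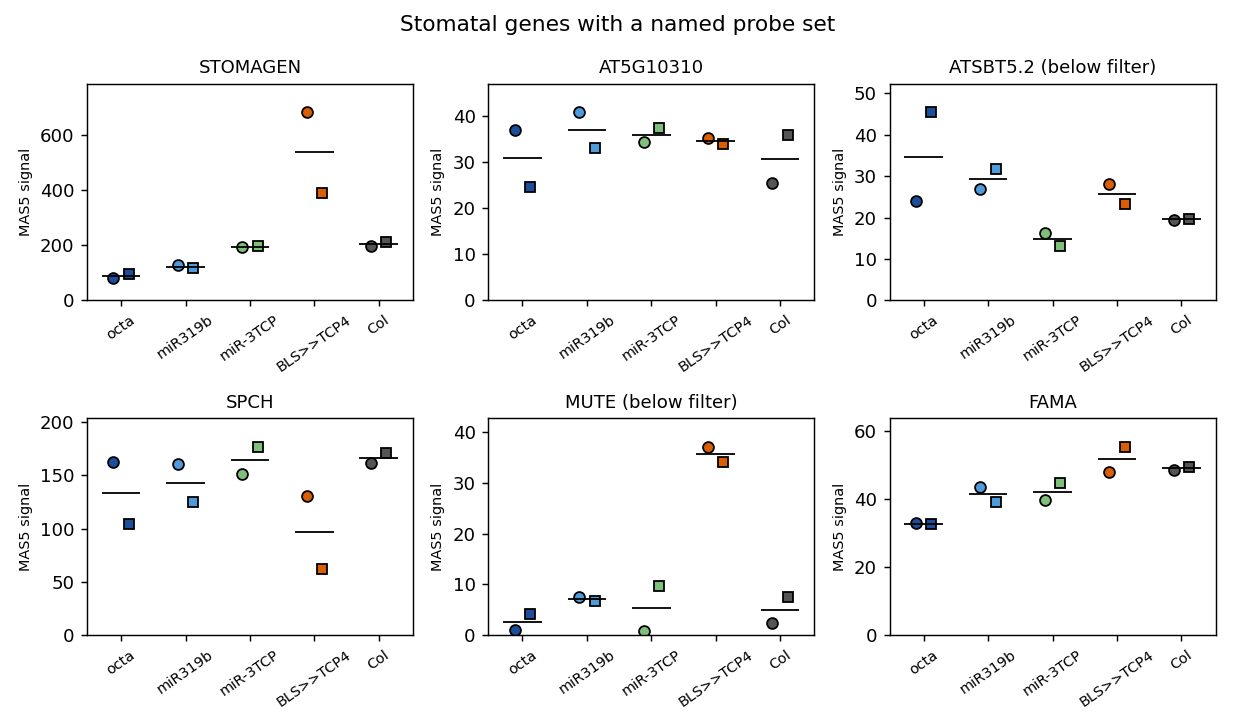
MAS5 signal (vertical axis, a scale of its own in each panel) of the 6 stomatal genes with a named probe set, by group; points are arrays (circle for replicate 1, square for replicate 2) and lines are group means. STOMAGEN is lowest in octa and highest in BLS>>TCP4, and MUTE reaches 37.2 and 34.1 in BLS>>TCP4 and no more than 9.69 elsewhere.

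Because the peptide is known from inner leaf tissue, genes of photosynthesis were read on the same arrays. All 7 of the 34 listed genes with a named probe set passed the filter: LHCB4.1 of the light-harvesting antenna, PSAE-1, PSAN and PSBY of the photosystems, and RCA, PRK and SBPASE of carbon fixation. Their summed signal was 13881 and 14749.9 on the octa arrays, 15933 to 16233 in miR319b, 16529 to 17436 in miR-3TCP, 34284 to 36762 in BLS>>TCP4, and 17776 to 18139 in Col. On the deposited scale the order of the group means was that of STOMAGEN, but after quantile normalization 6 of the 7 genes were higher in octa than in miR319b (median log2 difference 0.13). Against Col, 1 of 7 was called lower in octa (PSBY, log2 change -0.47 ± 0.10, limma adjusted p = 0.0455) with all 7 changes negative, 0 were called in miR319b or miR-3TCP (3 and 0 at an unadjusted p under 0.05), and 7 were called higher in BLS>>TCP4. Of all probe sets, 1.55% were called lower in octa, 2.78% lower in miR319b, 0.00733% either way in miR-3TCP and 17.4% higher in BLS>>TCP4. An unadjusted p under 0.05 was reached by 3066 of 13648 in miR319b and by 401 in miR-3TCP. With 7 genes, a count of 0 in miR319b or miR-3TCP is near those shares of calls. Fitted without the BLS>>TCP4 arrays, LHCB4.1, PSAE-1 and SBPASE were called lower in octa as well (limma adjusted p = 0.0342, 0.0488 and 0.0319). In that fit 3.38% of all probe sets were called lower. The fall of PSBY was lost in 14 of 21 alternative fits, among them each that left out 1 of the 8 Col accession arrays (adjusted p = 0.0725 to 0.319). After quantile normalization 1 of 7 was called higher in BLS>>TCP4, where LHCB4.1 and PRK had changes of -0.21 and -0.03. In octa 0 were called, with all 7 changes still negative, and 2 were called lower in miR319b. Of all 13648 probe sets, 1234 were then called higher in BLS>>TCP4, 120 lower in octa and 382 lower in miR319b. With 7 genes, the counts of 1 in BLS>>TCP4 and 0 in octa are near those shares. The median log2 changes of the 7 genes were -0.38 in octa, -0.18 in miR319b, -0.06 in miR-3TCP and 1.05 in BLS>>TCP4, smaller in size than those of STOMAGEN except in miR-3TCP, where both were close to 0. After quantile normalization these medians were -0.33 in octa, -0.40 in miR319b, -0.08 in miR-3TCP and 0.19 in BLS>>TCP4, against STOMAGEN changes of -1.04, -0.64, -0.04 and 1.07.

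Set within each array against the mean of these 7 genes on the log2(signal + 16) scale, STOMAGEN lay at -4.29 and -4.19 in octa, -3.97 and -4.03 in miR319b, -3.47 and -3.52 in miR-3TCP, -2.76 and -3.65 in BLS>>TCP4, and -3.53 and -3.48 in Col. Both octa arrays and both miR319b arrays lay below every Col and miR-3TCP array. The BLS>>TCP4 arrays lay on either side of those of Col. Relative to the photosynthesis genes, STOMAGEN differed from Col by -0.74 in octa and by -0.49 in miR319b on this scale, both more than the spread between replicates, while its difference of 0.30 in BLS>>TCP4 was smaller than the spread there (SD 0.63, n = 2). After quantile normalization the difference in BLS>>TCP4 was 0.91 and that in miR319b was -0.28. The part of leaf tissue content in the STOMAGEN differences was not tested.

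**Figure D4:**
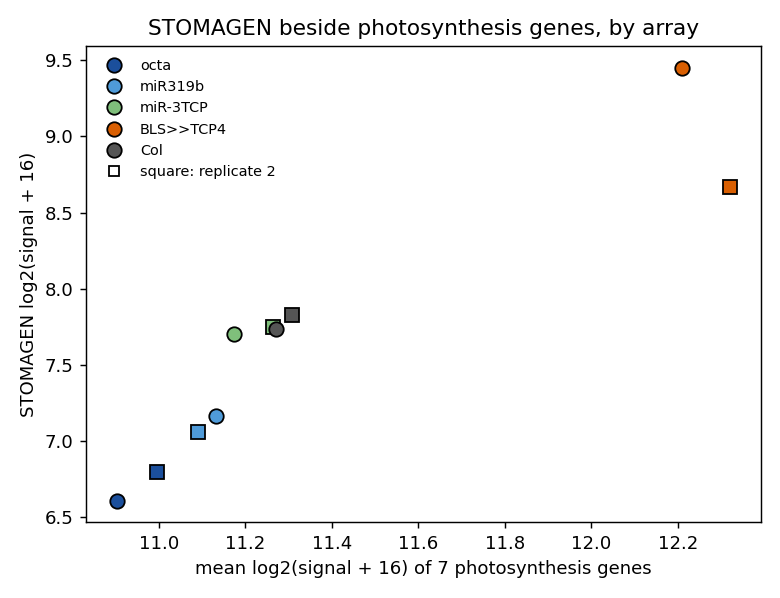
STOMAGEN log2(signal + 16) (vertical axis) against the mean log2(signal + 16) of 7 photosynthesis genes (horizontal axis) on each array, coloured by group, with circles for replicate 1 and squares for replicate 2. On the deposited scale the octa arrays lie lowest on both axes and the BLS>>TCP4 arrays highest, and the BLS>>TCP4 replicates differ in STOMAGEN (9.45 and 8.67) more than in the photosynthesis mean (12.2 and 12.3).

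Other tissues were thinly covered by named probe sets. Of 9 epidermal markers only ACR4, a receptor kinase gene of the epidermis, was measured, with signals of 38.6 to 56.8 in octa, 36.2 to 55.6 in miR319b, 32.8 to 40.9 in miR-3TCP, 42.8 to 46.8 in BLS>>TCP4 and 33.5 to 42.5 in Col, and it was not called against Col (limma adjusted p = 0.557 to 1.000). Of 6 root markers only PYK10, which encodes a beta-glucosidase, was measured. Its signals were 1853 and 1937 in octa and 1886 and 1917 in Col, and it fell in BLS>>TCP4 (992 and 1508, log2 change -0.63 ± 0.17, adjusted p = 0.0202, with 8.71% of probe sets called lower), a call lost without either Col array (adjusted p = 0.0852 and 0.0886) and with only the compared arrays (0.0959). The PYK10 change was -0.33 without BLS>>TCP4 replicate 1, -0.93 without replicate 2 and -1.15 after quantile normalization. Of 10 shoot meristem markers only CLV3, which encodes a stem cell peptide, was measured, and it lay between 0.654 and 7.26 on all arrays, below the filter. In the fit with no filter CLV3 was not called against Col (adjusted p = 0.450 to 1.000). None of the 4 guard cell, 5 vascular, 5 flower or 5 upstream regulator genes listed (HY5 and ARF5 among the last) had a probe set with a single listed gene.

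The genes most like STOMAGEN were ranked by Pearson correlation of log2(signal + 16) over the 10 arrays, among 7361 other tested probe sets with 1 listed gene. The points share their arrays and fall into groups of 2, so the correlations are descriptions, and 0.774% of the genes compared had r above 0.95 (median r = 0.21). The genes were picked on these same values, so the direction of their changes in octa and BLS>>TCP4 follows from the choice. Their limma results below are descriptions too and are no support for the pattern of STOMAGEN. AT2G36885 was first (r = 0.981, and r = 0.974 over the 8 Col accession arrays), followed by AT1G65720 (0.980), AT3G10350 (0.979), AT3G10060 (0.978), AT2G21960 (0.976), AT2G35490 (0.975), AT5G51110 (0.973) and AT1G56190 (0.973). The gene table gives no name to these 8 loci. The ranking depended on the measure. Of the 8, 2 were among the 8 highest over the Col accession arrays, 3 by Spearman correlation over 10 arrays and 5 after quantile normalization. In the last setting AT1G65720 had r = 0.918 and a log2 change in BLS>>TCP4 against Col of 0.15. AT2G36885 had mean signals of 142 ± 10.9 in octa, 194 ± 17.2 in miR319b, 305 ± 43.4 in miR-3TCP, 617 ± 215 in BLS>>TCP4 and 334 ± 8.36 in Col (SD, n = 2 each). Its log2 change in octa was -1.15 (limma adjusted p = 0.0364) and in BLS>>TCP4 0.81 (adjusted p = 0.0208). The call in octa was lost in 10 of 21 alternative fits, among them each that left out 1 of the 8 Col accession arrays (adjusted p = 0.0574 to 0.254). That in BLS>>TCP4 was lost in 5 of 20, after quantile normalization (adjusted p = 0.0853), with only the compared arrays (0.0813), without either Col array (0.0999 and 0.0799) and without BLS>>TCP4 replicate 1, where the change was 0.46 (0.0713). Against Col the 8 loci had log2 changes of -1.15 to -0.36 in octa and of 0.47 to 1.06 in BLS>>TCP4, so that only AT2G36885 moved as far as STOMAGEN in octa and none did in BLS>>TCP4.

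Over the 8 Col accession arrays alone, the highest correlations were those of AT5G51110 (r = 0.991), AT5G11480 (0.986), AT1G63610 (0.982), AT1G26220 (0.980) and AT2G30350 (0.979). They were picked on those arrays, so the direction of their changes in octa follows from the choice. AT5G51110 was in both rankings. Its order over all 10 arrays was that of STOMAGEN (Spearman's rho = 1.00), and so was that of AT5G11480 (1.00). AT5G11480 and AT2G30350 had log2 changes in octa against Col of -0.91 (limma adjusted p = 0.0156) and -0.56 (adjusted p = 0.156). In BLS>>TCP4, where STOMAGEN had 1.28, they had 0.24 and 0.13 (adjusted p = 0.207 and 0.616). The fall of AT2G30350 in octa was called without the BLS>>TCP4 arrays (adjusted p = 0.0453). AT1G26220 fell in octa (-0.62, adjusted p = 0.0464) and rose in BLS>>TCP4 (1.01, adjusted p = 5.54e-04). The fall of AT5G11480 in octa was lost when any octa or Col array was left out (adjusted p = 0.0709 to 0.182) and in no other alternative fit, and that of AT1G26220 was lost in 15 of 21 (adjusted p up to 0.299), quantile normalization among them (0.0529).

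The most opposite pattern was that of GH3.3, which encodes an enzyme that conjugates auxin to amino acids (r = -0.979). GH3.3 and the genes named after it here were picked for the lowest correlations. The direction of their changes in octa and BLS>>TCP4 therefore follows from the choice. GH3.3 averaged 374 ± 81.4 in octa, 363 ± 40.6 in miR319b, 243 ± 1.14 in miR-3TCP, 89.9 ± 28.6 in BLS>>TCP4 and 228 ± 22.8 in Col (SD, n = 2 each). It fell in BLS>>TCP4 (log2 change -1.23, limma adjusted p = 0.00272). Its changes of 0.67 in octa and 0.64 in miR319b were not called with all arrays fitted (adjusted p = 0.157 and 0.112). Without the BLS>>TCP4 arrays the change in miR319b was called (adjusted p = 0.0428) and that in octa was not. The chromatin remodelling factor gene CHR17 (r = -0.973), AT1G78210 (r = -0.964) and AT2G47680 (r = -0.963) came next, with changes in BLS>>TCP4 of -0.39, -1.17 and -0.79 (adjusted p = 0.0752, 0.00207 and 0.00289).

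**Figure D5:**
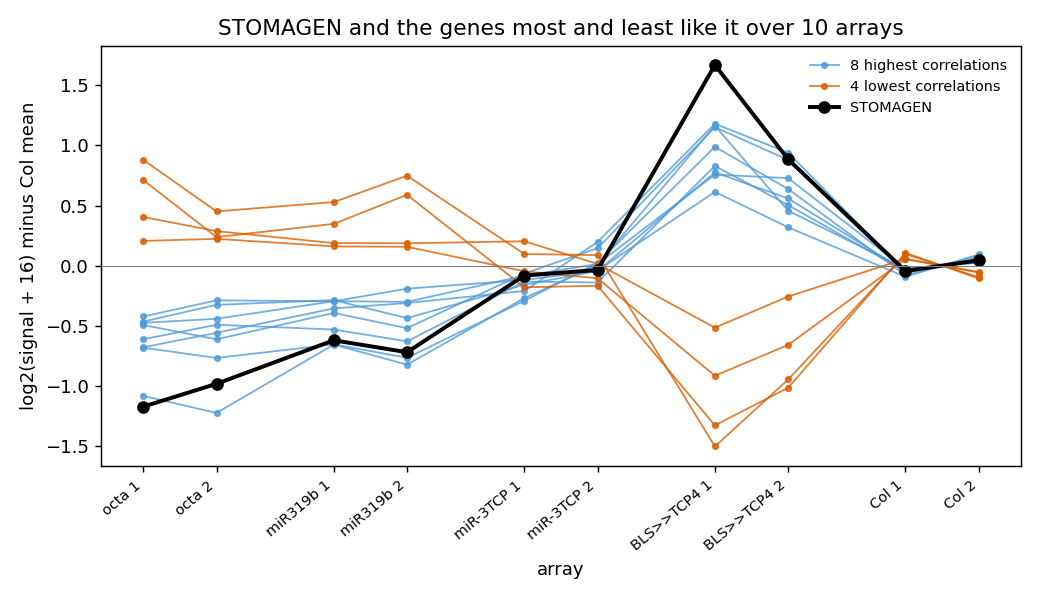
Difference of log2(signal + 16) from the Col mean (vertical axis) on each of the 10 arrays for STOMAGEN (black), the 8 genes with the highest (blue) and the 4 genes with the lowest (orange) Pearson correlation with it. STOMAGEN spans -1.08 in octa to 1.28 in BLS>>TCP4 as group means, a wider range than the 8 genes most like it, whose group means run from -1.15 to 1.06.

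The neighbours of STOMAGEN on its chromosome were read as well. Of the 5 protein-coding genes on each side in the gene table, 7 had a named probe set and 3 passed the filter. AT4G12980, the next gene, had signals of 98.2 and 85.2 in octa, 83.1 and 89.7 in miR319b, 159 and 195 in miR-3TCP, 304 and 315 in BLS>>TCP4, and 167 and 185 in Col. The groups were ordered much as for STOMAGEN, except that octa and miR319b overlapped. AT4G12980 fell in octa (log2 change -0.83 ± 0.14, limma adjusted p = 0.0279) and in miR319b (-0.90 ± 0.14, adjusted p = 0.0162) and rose in BLS>>TCP4 (0.76 ± 0.14, adjusted p = 0.00450), with 0.01 in miR-3TCP (adjusted p = 1.000). Both falls were lost when either Col array or either array of the group itself was left out (adjusted p = 0.0650 to 0.254), and the fall in octa also without either miR319b array (adjusted p = 0.0527 and 0.0524). Its correlation with STOMAGEN was 0.926 over 10 arrays, the 167th of 7361. The other 2 neighbours tested, AT4G12990 and AT4G13010, had changes in octa of 0.08 and -0.21 (adjusted p = 0.900 and 0.490) and in BLS>>TCP4 of 0.67 and 0.37 (adjusted p = 0.0244 and 0.0526).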

How the data were processed

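Vegetative apices of 5 groups were hybridised to 10 Affymetrix arrays, 2 per group, and nothing in the labels says that replicates came from separate cultures of plants, so p-values measure the spread between these arrays, which may be technical. The authors deposited MAS5 signal intensity values on a linear scale, per the submitters' processing notes, with no version or settings of MAS5 stated there. The median of every array was 50, so each array had been scaled; detection calls were not used here. The number of arrays limits the precision.

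Intensities were transformed as log2(signal + 16), a scale on which folds of weak signals come out too small. Control probe sets (64) were removed, and probe sets under the 40th percentile of mean signal were left out, which kept 13648. Limma (version 3.58.1, R 4.3.3) was fitted to all 5 groups with an intensity trend and 5 residual degrees of freedom, over 12 contrasts, and was tested on simulated data. Genes were named from the platform annotation, in which 13513 probe sets list 1 gene (13436 matched the gene table of TAIR10.1), 503 list several and 8730 are not listed. The genes named were STOMAGEN, the measured members of the stomatal list, up to 4 called members of each tissue marker list (2 where none was called), and the 8 most like and 4 least like STOMAGEN by Pearson correlation, with the 5 most like over the Col accession arrays. The neighbours on the chromosome and the remaining photosynthesis genes were added to that rule after their values were seen. The members and lists were chosen with earlier results of these data known. Promoter and protein sequences were not used here, and the planned search for promoter motifs was not run. Pseudocounts, filters, normalizations, the replicate block and left-out arrays were tried as alternatives.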

Additional observations from a re-analysis of the deposited data

How the results depend on the processing

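Over 21 alternative fits (20 for contrasts with BLS>>TCP4), STOMAGEN kept its direction in all contrasts with a call and kept its side of the threshold in miR-3TCP against Col, in octa against miR319b, in all 4 contrasts with BLS>>TCP4, in miR319b present against absent and in the interaction. The fall in octa against Col lost its call with a pseudocount of 64 (log2 change -0.82), quantile normalization (-1.04, adjusted p = 0.0520), median centring (-1.03, 0.0657), no filter (-1.08, 0.0926), no trend (-1.08, 0.0515) and the replicate block (-1.08, 0.0524). That in octa against miR-3TCP lost it with a pseudocount of 64 (-0.77), no filter (-1.02, 0.0934), median centring (-0.97, 0.0686) and the replicate block (-1.02, 0.0530). The differences of miR319b from Col (-0.67) and from miR-3TCP (-0.61) were called when only the compared arrays were fitted (adjusted p = 0.0467 and 0.0456) or without the BLS>>TCP4 arrays (0.0172 and 0.0233). With each array left out in turn, where a lone array is assumed to vary like the other groups, the changes ran from -1.17 to -0.98 in octa against Col, -1.11 to -0.92 in octa against miR-3TCP, -0.72 to -0.62 in miR319b against Col and -0.66 to -0.56 in miR319b against miR-3TCP, with adjusted p-values of 0.00928 to 0.298, 0.0104 to 0.345, 0.0167 to 0.440 and 0.0230 to 0.542. The first 2 lost their call without any one of the 8 Col accession arrays, and the last 2 gained it without either BLS>>TCP4 array. Relative to the photosynthesis genes, STOMAGEN moved to -0.86 and -0.48 in octa with pseudocounts of 1 and 64, and in miR319b to -0.55, -0.35 and, after quantile normalization, -0.28; in BLS>>TCP4, where the SD is 0.63, the value was 0.36, 0.16 and 0.91 in the same settings. LHCB4.1 (-0.21) and PRK (-0.026) reversed in BLS>>TCP4 against Col after quantile normalization. Other results for named genes in the contrasts with Col lost a call in 100 cases and gained one in 55, against 2230 that kept their side. The causes were not tested.

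Counts of called probe sets moved more. Against Col, the count of 249 in octa was 74 with no filter, 126 after median centring, 164 with no trend, 566 without BLS>>TCP4 arrays and 8 to 573 with 1 array left out; that of 549 in miR319b was 238 with no filter, 1330 without BLS>>TCP4 arrays and 9 to 1352 with 1 array left out; and that of 3564 in BLS>>TCP4 was 1769 with only the compared arrays and 1672 to 3818 with 1 array left out. The count of 335 in octa against miR-3TCP was 84 with no filter, 593 without BLS>>TCP4 arrays and 6 to 616 with 1 array left out; that of 512 in miR319b against miR-3TCP was 170, 1100 and 11 to 1119 in the same fits. With only the compared arrays, BLS>>TCP4 had 1702 calls against miR-3TCP (3246 with all arrays), 2588 against miR319b (4390) and 3047 against octa (4648). The count for miR319b present against absent (1317) was 2012 without BLS>>TCP4 arrays and 529 to 2020 with 1 array left out. The correlation of replicate differences between groups ran from -0.40 (miR319b with octa) to 0.45 (Col with miR-3TCP), so replicate numbers marked no pairing common to all groups. A batch shared by some of the groups was not tested. The 2 lost calls above are the only ones of STOMAGEN that the replicate block changed. With 2 arrays a group, a permutation test between groups cannot go below 0.333.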
